A study of Mus musculus with 4 samples.

Results

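The 10 Toll-like receptor genes Tlr1 to Tlr9 and Tlr13 were chosen by symbol from the 17335 genes of the expression table, and all 10 were detected in both libraries. The table compares gonadal white adipose tissue (gWAT) of AD1KO mice with that of fl/fl littermates. fl/fl mice carried Dnmt1 alleles flanked by loxP sites and no deletion. AD1KO mice carried the same floxed alleles together with Cre recombinase driven by the adiponectin promoter, which deletes part of Dnmt1 in adipocytes and leaves the gene in the other cells of the tissue. All animals were female and had been fed a high-fat diet (HFD, 60% of calories from fat) for 18 weeks, and their age is not given in the sources used here. Equal amounts of RNA from 4 animals per group were pooled into 1 library, so that each group is 1 library. The comparison therefore has no replicate check, and no p-value is given.

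Toll-like receptors are membrane proteins of innate immune cells that bind conserved molecules of microbes and, in some cases, of damaged cells. TLR1, TLR2, TLR4, TLR5 and TLR6 act mainly at the cell surface on lipids and proteins, whereas TLR3, TLR7, TLR8, TLR9 and TLR13 act in endosomes on nucleic acids. All but TLR3 signal through the adaptor MyD88, and TLR3 and TLR4 use the adaptor TRIF, which leads to the activation of NF-κB, AP-1 and interferon regulatory factors. In obese adipose tissue most of the family is expressed by macrophages and other leukocytes, and adipocytes themselves express some members, among them Tlr4.

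Tlr1 and Tlr6 are shown first by sequence, because they are the only members whose values may share reads. They lie 20344 bases apart on chromosome 5 of mm9, Tlr1 at 65316050 to 65324000 and Tlr6 at 65344345 to 65351287, both on the minus strand. Of the 50-base windows of the Tlr1 transcript, 17.4% occurred unchanged in a transcript of Tlr6 and in no other gene, while the other 8 members shared no such window with any other protein-coding gene. The longest identical run was 229 bases and is coding in both genes, at chr5:65316776-65317004 in Tlr1 and chr5:65345067-65345295 in Tlr6. The run is printed on the minus strand, 5′ to 3′:
Tlr1 and Tlr6: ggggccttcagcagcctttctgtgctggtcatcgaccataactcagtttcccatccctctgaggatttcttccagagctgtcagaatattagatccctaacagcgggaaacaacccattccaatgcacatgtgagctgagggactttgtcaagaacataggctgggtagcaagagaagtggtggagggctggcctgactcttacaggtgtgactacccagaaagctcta
A read that lies wholly within such a run cannot be assigned to one of these genes, so the separate values of Tlr1 and Tlr6 are uncertain. Their sum is given beside them, and it too can depend on how such reads were counted, which is not given in the sources used here.

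The 250 bases before the transcription start are shown for 3 members that differed in direction or size between the libraries. Dnmt1 copies methylation at CpG sites to the new DNA strand, so each CpG is in capitals. The windows come from RefSeq promoters (GRCm38.p6) and were placed in mm9 by exact match, at chr1:184884669-184884918 on the plus strand for Tlr5, chrX:163702262-163702511 on the minus strand for Tlr8 and chr9:106124679-106124928 on the plus strand for Tlr9:
Tlr5: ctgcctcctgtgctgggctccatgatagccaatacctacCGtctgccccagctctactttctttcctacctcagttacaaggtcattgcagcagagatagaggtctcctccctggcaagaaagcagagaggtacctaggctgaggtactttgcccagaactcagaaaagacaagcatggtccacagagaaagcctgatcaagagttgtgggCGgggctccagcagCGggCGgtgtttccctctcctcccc
Tlr8: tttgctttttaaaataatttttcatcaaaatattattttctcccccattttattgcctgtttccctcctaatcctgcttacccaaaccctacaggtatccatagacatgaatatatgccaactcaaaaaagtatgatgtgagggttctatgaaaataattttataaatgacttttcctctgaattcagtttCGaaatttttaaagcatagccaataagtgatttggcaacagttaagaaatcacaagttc
Tlr9: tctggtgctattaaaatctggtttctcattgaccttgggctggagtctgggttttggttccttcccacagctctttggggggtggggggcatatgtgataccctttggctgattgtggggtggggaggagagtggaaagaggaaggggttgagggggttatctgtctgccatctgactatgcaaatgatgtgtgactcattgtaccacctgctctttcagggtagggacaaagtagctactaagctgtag
Tlr5, the member that was higher in AD1KO, has 4 CpGs in this window, Tlr8 has 1 and Tlr9 has 0. The median over 15146 such promoters of 11901 tested genes is 14 CpGs, with quartiles of 6 and 22. Entries were found for 8 of the 10 members, all but Tlr4 and Tlr7, and their 10 windows held from 0 to 11 CpGs, each below that median. RefSeq starts do not all match the mm9 gene starts. By the mm9 annotation the windows of Tlr2, Tlr3 and Tlr13 and 1 window of Tlr1 overlapped exons, and 1 window of Tlr6 preceded a start 882 bases inside the gene. The other window of Tlr1 preceded a start at -797 bases relative to the mm9 gene start. The highest count, 11 in Tlr2, lay at the percentile 39.1 of all these promoters. The core of the ETS motif that PU.1 binds, GAGGAA on either strand, was present in windows of Tlr1, Tlr8, Tlr9 and Tlr13. That is 4 of the 10 windows of these 8 members, against 22.7% of all promoter windows. In Tlr1 the core was only in the window before the start at -797 bases. Searched likewise on either strand, the interferon response core (GAAA, any 2 bases, GAAA) was present in 1 window of Tlr6 and in no other of the 8 members (2.77% of all promoters). A narrow form of the NF-κB motif (GGGA, any base, TTTCC) was present in Tlr3 alone (0.403%), and other forms of that motif were not searched. TATAAA was present in Tlr6 and Tlr8 (7.59%), and the ETS-IRF composite (GGAA, any 2 bases, GAAA) in none (2.02%). These motif counts describe the letters of the windows. Methylation of these windows in AD1KO was not measured in the data analysed here.

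Dnmt1, the gene deleted in adipocytes, was at 6.99 FPKM (fragments scaled to transcript length and to library size) in fl/fl and 3.33 FPKM in AD1KO, a log2 ratio of -1.07 and the direction its label gives. Every ratio is that of AD1KO over fl/fl after adding 0.01 FPKM, and 0.5 in either direction is the threshold of the study's methods. The libraries held about 17692596 and 17520011 reads on genes, estimated from the steps of the FPKM values. The 95% intervals rest on these reads, are exact and cover counting error only. The tested genes were the 15839 that reached 0.1 FPKM in either library. Of these, 19.1% were lower in AD1KO by at least 0.5 and 14.3% were higher, which is 3029 and 2265 genes, and the median ratio was -0.04. Under upper quartile scaling the balance turned, to 2653 lower and 2712 higher genes.

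Toll-like receptor mRNA was lower in AD1KO gWAT as a family, with 1 exception. By the threshold 8 of 10 members fell (Tlr1, Tlr2, Tlr4, Tlr6, Tlr7, Tlr8, Tlr9 and Tlr13), Tlr5 rose, and Tlr3 did not pass. Of all tested genes, 19.1% fell and 14.3% rose by the same threshold. A fall of at least 1 on the log2 scale was seen in 4 members (Tlr1, Tlr2, Tlr8 and Tlr13), against 8.95% of all tested genes. The whole counting interval lay below -0.5 in 6 members, all of the lower ones but Tlr4 and Tlr9, against 8.28% of tested genes, and above 0.5 in Tlr5, against 4.17%. Summed over the 10 genes, the level was 84.57 FPKM in fl/fl and 41.98 FPKM in AD1KO, and the reads of the family gave a log2 ratio of -0.98 (95% counting interval -1.04 to -0.91). The median of the members' ratios was -0.86, and the interquartile range of all tested genes lay between -0.36 and 0.27.

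**Figure D1:**
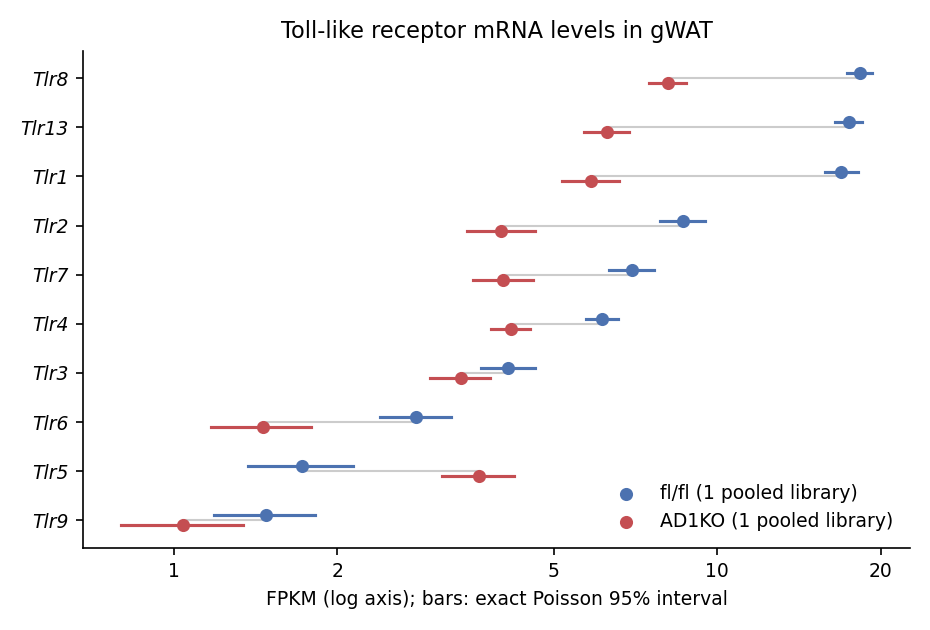
Level of each of the 10 Toll-like receptor genes in the fl/fl library (blue) and the AD1KO library (red), in FPKM on a log axis, with exact Poisson 95% intervals that cover counting error only. In 9 genes the fl/fl point lies to the right of the AD1KO point, and in Tlr5 the order is the opposite, 1.72 against 3.65 FPKM.

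Among the surface members, Tlr2 and the genes of its partners fell most. Tlr1, whose product joins TLR2 to bind triacylated lipopeptides, was at 16.92 FPKM in fl/fl and 5.85 FPKM in AD1KO, and its log2 ratio of -1.53 (interval -1.73 to -1.33) was the lowest of the 10 members. Tlr2, the common partner, was at 8.64 and 4.01 FPKM, a ratio of -1.11 (interval -1.36 to -0.86). Tlr6, whose product joins TLR2 to bind diacylated lipopeptides, was at 2.79 and 1.46 FPKM, a ratio of -0.93 (interval -1.32 to -0.56). The intervals of the levels did not overlap between the libraries in any of these 3 genes. The ratio of Tlr1 was below that of Tlr2 by -0.43 (interval of the difference -0.74 to -0.10) and below that of Tlr6 by -0.60 (interval -1.02 to -0.16), whereas Tlr6 and Tlr2 differed by 0.18 with an interval from -0.29 to 0.63 that includes 0. Taken as a sum, Tlr1 and Tlr6 were at 19.71 and 7.31 FPKM, and their summed reads had a ratio of -1.41 (interval -1.58 to -1.23).

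Tlr4, the receptor of bacterial lipopolysaccharide, fell less. It was at 6.14 FPKM in fl/fl and 4.17 FPKM in AD1KO, a log2 ratio of -0.56 (interval -0.71 to -0.40), so its interval crosses the threshold. When both libraries were scaled by their upper quartile the ratio of Tlr4 was no longer past 0.5. Tlr4 lies on chromosome 4 of mm9 (66488618 to 66591318, plus strand).

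Tlr5, the receptor of bacterial flagellin, was the only member that rose. It was at 1.72 FPKM in fl/fl and 3.65 FPKM in AD1KO, from about 81 and 170 reads, which is 2.12-fold and a log2 ratio of 1.08 (interval 0.69 to 1.48). The ratio lay at the percentile 95.1 of all tested genes, and it stayed between 0.77 and 1.16 over the 6 other scalings, pseudocounts and read-based ratios that were computed. In fl/fl Tlr5 stood ninth of the 10 members and contributed 2.03% of their summed FPKM, and in AD1KO it stood seventh and contributed 8.69%. Without Tlr5, the summed reads of the other 4 surface receptors had a ratio of -0.98 (interval -1.08 to -0.88), and with it the 5 surface receptors had a ratio of -0.83 (interval -0.93 to -0.73). Tlr5 lies on chromosome 1 of mm9 (184884919 to 184906175, plus strand), apart from the other members.

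**Figure D2:**
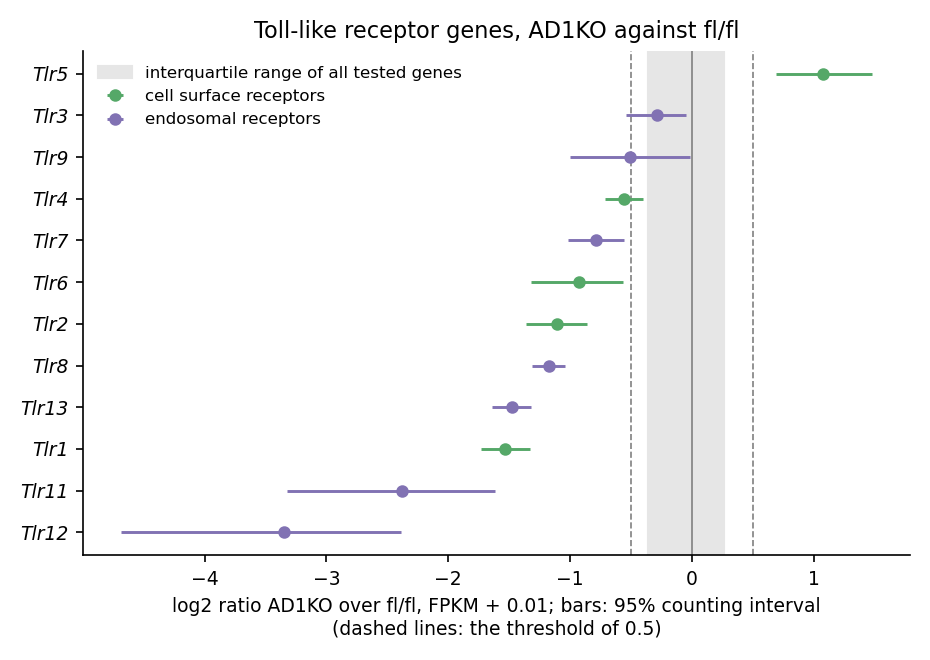
Log2 ratio of AD1KO over fl/fl for the 10 members and for Tlr11 and Tlr12, with 95% counting intervals, surface receptors in green and endosomal ones in purple. The gray band is the interquartile range of all tested genes (-0.36 to 0.27) and the dashed lines mark 0.5 in either direction. Tlr5 lies to the right of the band, Tlr3 lies within it, and the other points lie to its left.

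The most abundant endosomal receptors were Tlr8 and Tlr13, and both fell by more than 1 on the log2 scale. Tlr13, which detects bacterial ribosomal RNA in mice, was at 17.48 FPKM in fl/fl and 6.27 FPKM in AD1KO, a ratio of -1.48 (interval -1.64 to -1.32). Tlr8, whose human counterpart detects RNA breakdown products, was at 18.31 and 8.11 FPKM, a ratio of -1.17 (interval -1.31 to -1.04). Tlr7, the receptor of single-stranded RNA, was at 6.96 and 4.04 FPKM, a ratio of -0.78 (interval -1.02 to -0.55). Tlr7 and Tlr8 are neighbors on the X chromosome, 40599 bases apart, and the ratio of Tlr8 was below that of Tlr7 by -0.39 (interval -0.66 to -0.12). Tlr13 lies on the same chromosome, 60324793 bases from Tlr8.

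The remaining endosomal receptors were lower in level and closer to the threshold. Tlr9, the receptor of DNA with unmethylated CpG, was at 1.48 FPKM in fl/fl and 1.04 FPKM in AD1KO, from about 87 and 61 reads. Its ratio of -0.50 (interval -1.0 to -0.01) passed the threshold by less than its counting error, and the intervals of its levels overlapped between the libraries. Under each of the 3 other scalings Tlr9 did not pass. Tlr3, the receptor of long RNA duplexes, was at 4.13 and 3.38 FPKM, a ratio of -0.29 (interval -0.54 to -0.05), and was the only member that did not pass in either direction. Together the 5 endosomal receptors were at 48.36 FPKM in fl/fl and 22.84 FPKM in AD1KO, and their summed reads had a ratio of -1.09 (interval -1.17 to -1.0).

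The order of the levels within each library also differed. In fl/fl, Tlr8, Tlr13 and Tlr1 stood highest and their neighbors' intervals overlapped, followed by Tlr2, by Tlr7 and Tlr4 with overlapping intervals, by Tlr3, by Tlr6, and by Tlr5 and Tlr9 with overlapping intervals. In AD1KO, Tlr8 stood above Tlr13 and Tlr1, whose intervals overlapped. Tlr4, Tlr7, Tlr2, Tlr5 and Tlr3 followed between 4.17 and 3.38 FPKM with each overlapping the next, and Tlr6 and Tlr9 were lowest. The highest member was at 12.4 times the level of the lowest in fl/fl and at 7.80 times in AD1KO. Tlr8, Tlr13 and Tlr1 together made up 62.3% of the summed FPKM in fl/fl and 48.2% in AD1KO. Tlr3 made up 4.88% and 8.05%, and the surface receptors 42.8% and 45.6%. Among all tested genes of the fl/fl library, the members ranged from the percentile 26.9 for Tlr9 to 75.5 for Tlr8.

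**Figure D3:**
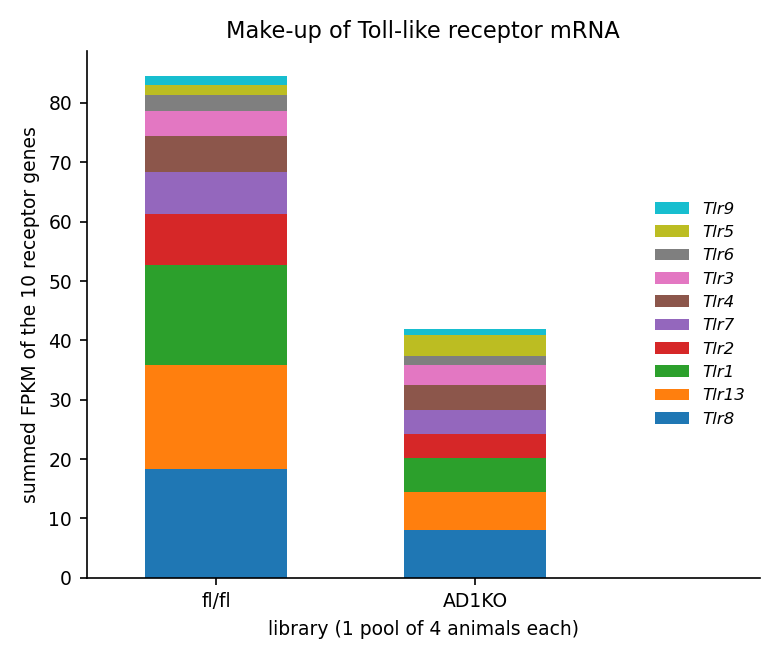
Summed FPKM of the 10 receptor genes in the fl/fl and the AD1KO library, each color 1 gene. The sum is 84.57 FPKM in fl/fl and 41.98 FPKM in AD1KO, and the lowest 3 segments, Tlr8, Tlr13 and Tlr1, shrink from 52.71 to 20.23 FPKM while the Tlr5 segment widens.

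Tlr11 and Tlr12, the mouse receptors of profilin from protozoan parasites, are not among the 10 but complete the family. Tlr11 was at 1.24 FPKM in fl/fl and 0.23 FPKM in AD1KO, from about 81 and 15 reads, a log2 ratio of -2.38 (interval -3.32 to -1.62). Tlr12 was at 1.62 and 0.15 FPKM, on an estimated 87 and 8 reads, a ratio of -3.35 (interval -4.69 to -2.39). Both fell below every one of the 10 members, at the percentiles 2.03 and 1.46 of all tested genes. They differed from each other by -0.97 with an interval from -2.53 to 0.41. With 1 FPKM added in place of 0.01 their ratios were -0.86 and -1.19. Neither then lay below all 10 members, since Tlr1 was at -1.39 and Tlr13 at -1.35 on that scale.

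The other genes of the pathway were described by 7 lists written from their roles. Of 84 listed genes 83 were tested, and 43 of them (51.8%) fell and 1 rose, beside 19.1% and 14.3% of all tested genes, with a median log2 ratio of -0.51. At a fall of at least 1 there were 25. The lists differed in their medians, from -0.19 in the kinases and ubiquitin ligases to -1.42 in the inducible targets.

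**Figure D4:**
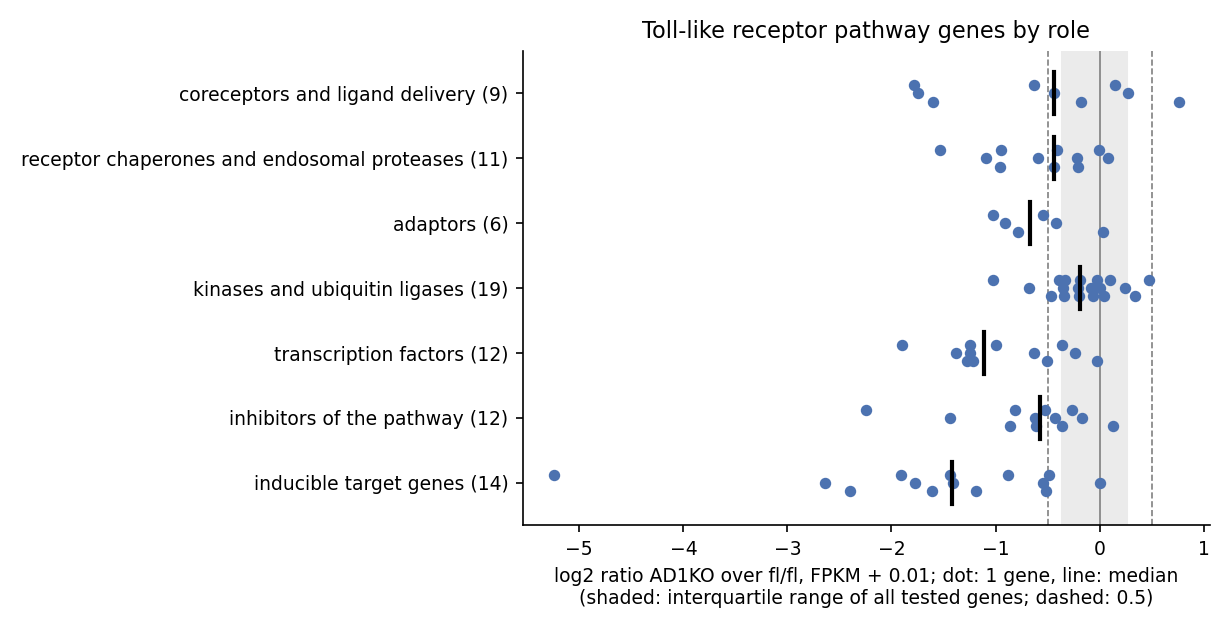
Log2 ratio of AD1KO over fl/fl for the 83 tested pathway genes, grouped by role, with the number of genes in parentheses. Each dot is 1 gene, each black line a list's median, the gray band the interquartile range of all tested genes and the dashed lines 0.5 in either direction. The medians of transcription factors (-1.11) and inducible targets (-1.42) lie farthest to the left, and the single dot beyond 0.5 on the right is Lbp (0.76).

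Among the 9 coreceptors and ligand carriers 4 fell and 1 rose, beside 19.1% and 14.3% of all tested genes. The median was -0.44. The members of the lipopolysaccharide receptor complex were close to each other. Cd14, which passes lipopolysaccharide to TLR4, was at 33.56 and 21.73 FPKM, a ratio of -0.63, and Ly96, which encodes the MD-2 subunit, was at 16.56 and 12.22 FPKM, a ratio of -0.44 that did not pass. Tlr4 differed from Cd14 by 0.07 (interval -0.15 to 0.29) and from Ly96 by -0.12 (interval -0.53 to 0.29). Lbp, the serum protein that delivers lipopolysaccharide, rose from 165.73 to 280.27 FPKM, a ratio of 0.76 (interval 0.72 to 0.80). The TLR4-like receptor Cd180 and its subunit Ly86 fell more than Tlr4, with ratios of -1.74 and -1.78, and Cd180 was below Tlr4 by -1.19 (interval -1.40 to -0.97). Cd180 and Ly86 differed by 0.04 (interval -0.14 to 0.22). Clec7a, the β-glucan receptor that acts together with TLR2, fell by 1.60.

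Of the 11 chaperones and endosomal proteases, which carry and cut the nucleic acid receptors, 5 fell and none rose. Of all tested genes, 19.1% fell and 14.3% rose. Unc93b1, which escorts these receptors to endosomes, was at 203.42 FPKM in fl/fl and 95.31 FPKM in AD1KO, a ratio of -1.09 (interval -1.15 to -1.04). The ratio of Tlr8 lay close to it, with a difference of -0.08 (interval -0.23 to 0.07). Tlr13 was below it by -0.38 (interval -0.56 to -0.21) and Tlr9 above it by 0.59 (interval 0.09 to 1.09). The proteases Ctss, Lgmn and Ctsk fell, with ratios of -1.54, -0.96 and -0.95, as did the endolysosomal transporter Slc15a4 (-0.59). The chaperone Hsp90b1 had a ratio of -0.43.

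All 6 adaptors were tested, and 4 fell, beside 19.1% of all tested genes. Myd88, which all members but TLR3 use, fell from 31.02 to 17.95 FPKM, a ratio of -0.79 (interval -0.94 to -0.64). Ticam2, which links TLR4 to TRIF, fell from 4.84 to 2.37 FPKM (-1.03), and Pik3ap1, an adaptor for phosphoinositide kinase, from 13.64 to 7.26 FPKM (-0.91). Ticam1, which encodes TRIF itself, had a ratio of -0.42 and Tirap, the bridge of TLR2 and TLR4 to MyD88, one of 0.04. Tlr3 and its adaptor Ticam1 differed by 0.13 (interval -0.21 to 0.46). Sarm1 passed with a ratio of -0.55 at 0.18 and 0.12 FPKM, where the counting interval of -1.97 to 0.56 includes 0.

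The kinases and ubiquitin ligases below the adaptors had the median closest to 0 of the 7 lists. Of 19, 2 fell, a share not above the 19.1% of all tested genes. They were Ikbke (17.31 to 8.50 FPKM, ratio -1.03) and Ikbkb (23.21 to 14.51 FPKM, ratio -0.68), both kinases of the IκB kinase family. The next largest ratios were 0.47 for Tab3, -0.47 for Irak4, -0.39 for Tbk1 and -0.35 for Map3k8, none of which passed. Of the 12 transcription factors at the end of the pathway 9 fell, 7 of them with the whole interval past the threshold, and the median was -1.11. The interferon regulatory factors Irf1, Irf7, Irf5 and Irf8 had ratios of -1.90, -1.38, -1.25 and -1.25, and Fos and Atf3 had ratios of -1.28 and -1.22. The 3 that did not pass were the interferon regulatory factor Irf3, at 23.27 and 22.82 FPKM (-0.03), and the NF-κB subunits Rela (-0.23) and Nfkb2 (-0.36). The other NF-κB subunits of the list passed. Nfkb1 fell from 17.10 to 11.01 FPKM (-0.63, interval -0.77 to -0.50). Rel, at 0.37 and 0.18 FPKM, had a ratio of -1.0 with an interval of -2.42 to 0.32 that includes 0.

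The inhibitors of the pathway did not move in the opposite direction. Of 12, 7 fell and none rose, beside 19.1% and 14.3% of all tested genes, with a median of -0.57. In 3 of the 7 the whole interval lay past the threshold. The interval of Cd300lf, which passed on about 15 and 8 reads, was -2.34 to 0.43 and includes 0. Socs1, a suppressor of cytokine signaling, fell from 11.66 to 2.45 FPKM (-2.25), and the inhibitory receptor Lilrb4a from 124.7 to 46.12 FPKM (-1.43). The ubiquitin editor Tnfaip3 had a ratio of -0.86, Il1rl1 of -0.63, Sigirr of -0.61 and the NF-κB inhibitor Nfkbia of -0.53. Of the 14 tested inducible targets 12 fell, 8 of them with the whole interval past the threshold. Il6 (0.22 FPKM in each library) and Nos2 (ratio -0.49) did not pass, and the intervals of Il1b, Il12a and Ptgs2, which passed, include 0. The chemokines Cxcl10 and Ccl5 fell from 51.96 to 8.36 FPKM (-2.63) and from 189.46 to 35.97 FPKM (-2.40). The costimulatory receptor Cd40 had a ratio of -1.90, Il10 of -1.77 and Tnf of -1.43. Acod1, which makes itaconate in activated macrophages, was at 2.26 and 0.05 FPKM, on an estimated 98 and 2 reads, a ratio of -5.24 (interval -8.67 to -3.71). Ifnb1 was listed at 0 in fl/fl and at 0.09 FPKM in AD1KO and was not tested.

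The markers of the cells that express these receptors moved in the same libraries. Of 12 macrophage markers 10 fell and none rose, beside 19.1% and 14.3% of all tested genes, with a median of -1.04. They ranged from -2.14 for Aif1 to 0.30 for Cd163, none was at 0 in either library, and their summed level was 6226.5 FPKM in fl/fl and 2724 FPKM in AD1KO. Their summed reads had a ratio of -1.14 (interval -1.16 to -1.13), beside -0.98 for the 10 receptors. All members but Tlr5 lay within the range of these markers. That range also contains the interquartile range of all tested genes (-0.36 to 0.27), so lying within it does not set the members apart. In tissue RNA, fewer cells of a type and less RNA per cell cannot be told apart, and the part of the markers in the receptors' values was not tested.

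Other leukocyte markers also moved, and their counts stand beside 19.1% lower and 14.3% higher of all tested genes. Dendritic cell markers had a median of -0.90 (6 of 8 lower, 1 higher, Clec9a at -2.17 to Cd209a at 0.68) and plasmacytoid dendritic cell markers one of -0.72 (4 of 6 lower, Bst2 at -1.30 and Tcf4 at -0.06). In the plasmacytoid list 2 of 6 had the whole interval past the threshold. The intervals of Siglech, Ccr9 and Klk1, each under 1 FPKM, include 0, as does that of Tcf4. B cell markers had a median of -0.68 (4 of 6 lower, Pax5 at -0.75 and Ms4a1 at -0.03), T cell markers one of -1.64 (7 of 7 lower, Cd3g at -1.85 to Cd8b1 at -1.5) and NK cell markers one of -2.07 (5 of 5 lower, Ncr1 at -2.91 to Eomes at -1.57). In these lists no marker was at 0. Neutrophil markers had a median of -0.79 (4 of 6 lower, 1 higher, Csf3r at -1.09 and S100a8 at 0.81), and Ly6g had no entry.

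Markers of other cells were mostly higher or did not pass, beside 14.3% higher and 19.1% lower of all tested genes. Adipocyte markers, the labeled tissue's own, were at 18349.5 FPKM in sum in fl/fl and 27312.5 FPKM in AD1KO, with 6 of 8 higher, a median of 0.54, and values from 0.37 for Pparg to 0.96 for Cidec. All 5 mesothelial markers were higher, from 0.75 for Lrrn4 to 1.07 for Upk3b, and their sum was 74.26 and 139.54 FPKM. These rises stand beside that of Tlr5, and their part in it was not tested. Endothelial markers had a median of 0.32 with none of 5 past the threshold (Pecam1 at 0.10 to Kdr at 0.49), and stromal progenitor markers one of 0.07 (2 of 6 lower, 1 higher, Ly6a at -1.31 to Dpp4 at 0.50).

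The gonadal pad lies against the reproductive tract, whose epithelial markers were detected at low level in fl/fl. Their sum was 8.25 FPKM in fl/fl and 1.18 FPKM in AD1KO, and 3 of 4 tested markers were lower, beside 19.1% of all tested genes. Ovgp1 was at 3.51 and 0.17 FPKM (-4.29) and Wfdc2 at 3.64 and 0.39 FPKM (-3.19), while Pax8 and Foxj1 were listed at 0 in AD1KO. In fl/fl Pax8 was at 0.25 FPKM (about 11 reads) and Foxj1, which was not tested, at 0.07 FPKM (about 3 reads). Epcam did not pass, at 0.78 and 0.62 FPKM (-0.33, interval -1.25 to 0.53). The list's median was -3.74, or -2.51 with the genes at 0 set to their bound of 3 reads. These low values stand beside those of Tlr11 and Tlr12, and their part in them was not tested.

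**Figure D5:**
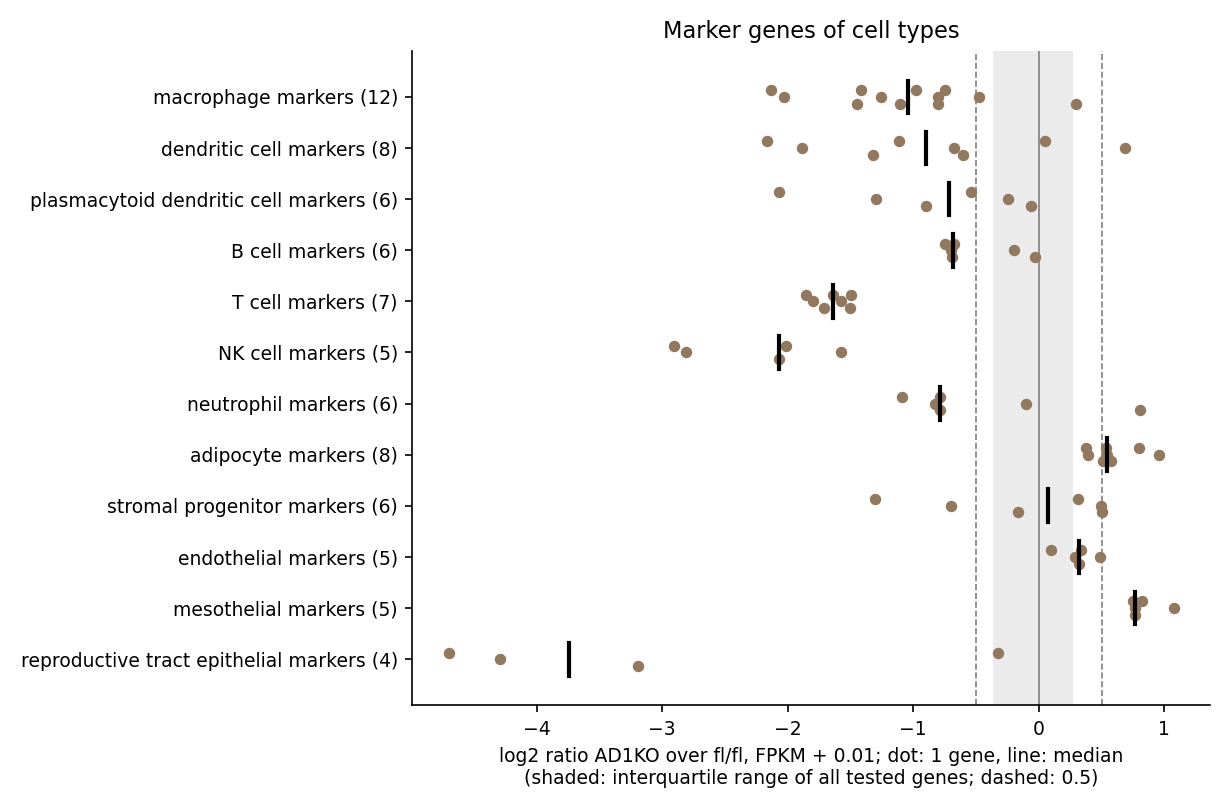
Log2 ratio of AD1KO over fl/fl for the tested markers of 12 cell types, with the number of genes in parentheses. Each dot is 1 gene, each black line a list's median, the gray band the interquartile range of all tested genes and the dashed lines 0.5 in either direction. Macrophage (-1.04), T cell (-1.64) and NK cell (-2.07) medians lie to the left, adipocyte (0.54) and mesothelial (0.76) medians to the right. The leftmost dot is Pax8, listed at 0 in AD1KO, so its ratio depends on the added 0.01 FPKM.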

How the data were processed

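Poly(A) RNA of gWAT was sequenced on the BGISEQ-500 platform for 2 of the 4 samples of the series, 1 pool of 4 animals each. The other 2 samples are RRBS and were not analysed here. Clean reads were aligned to mm9. The aligner and the program that quantified genes are not given in the sources used here. The authors deposited 1 table of both libraries in FPKM, with 0 written as 0.01. Its columns of fold changes, P-values and FDR hold the authors' own comparison and were not used. The tests were set for a table whose unit was not yet known, and the settings for FPKM were applied.

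Values of 0.01 were set back to 0 (726 genes in fl/fl, 730 in AD1KO), 0.01 FPKM was added, and AD1KO was divided by fl/fl on the log2 scale. A gene was tested where either library reached 0.1 FPKM, which kept 15839 of 17335. Adding 0.01 understates the change of genes near that level that were detected in both libraries. For a gene listed at 0 the ratio depends on the added value: Pax8 had a ratio of -4.70, and of -1.83 with its 0 set to 3 reads. Whole reads give steps in the FPKM of short genes. A depth of 17530000 (fl/fl) and 17390000 (AD1KO) and a length correction of 114 bases placed 77.1% of 306 and 74.8% of 318 such values within 0.15 of a whole number, and reads per gene were estimated from them. Over both libraries together, tested genes had a median of 569 estimated reads. Intervals of ratios are exact Clopper-Pearson 95% intervals, those of levels exact Poisson intervals, and those of the 13 differences between partner genes exact conditional intervals without adjustment. A gene at 0 allows up to 3 reads. Reads carried no molecular identifiers in the table, so all intervals cover counting error only, and with 1 library per group they compare libraries.

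The members and the lists were chosen with earlier results of these data known, so counts over them are descriptions. The genes named were the 10 members, Tlr11 and Tlr12, Dnmt1, every gene of a pathway list of up to 6, otherwise the 6 with the largest ratio among those at 1 FPKM or more together with Cd14, Ly96, Myd88, Ticam1, Unc93b1 and Irf7, and the lowest and highest marker of each cell type at 1 FPKM or more. Ifnb1, Ly6g, Pax8 and Foxj1 were named for being untested, absent or at 0. Irf3, Rela, Nfkb2, Il6, Nos2, Il1b, Il12a, Ptgs2, Epcam, Siglech, Ccr9, Klk1, Cd300lf, Retnlg and Cxcr2 were chosen after their values were seen. They were named for not passing or for intervals that include 0. Nfkb1 and Rel were named to complete the NF-κB subunits of their list. Positions and transcripts are from GENCODE M1 (mm9), promoters from RefSeq. A Tlr transcript's 50-base windows were searched in all other protein-coding transcripts. Alternatives were other scalings, pseudocounts, filters, a threshold of 1, calls by the whole interval and ratios of reads. The steps were tested on simulated data. Intervals were computed with SciPy 1.17.1 and NumPy 2.4.6 in Python 3.11.15, tables were read with pandas 2.3.3, and plots were drawn with Matplotlib 3.10.9.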

Additional observations from a re-analysis of the deposited data

How the results depend on the processing

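The members' median log2 ratio of -0.86 lay between -0.86 and -0.64 over the 6 alternatives that give ratios, and no member changed sign in them. The 8 lower members became 7 under trimmed mean and median of ratios scaling (without Tlr9), 6 under upper quartile scaling (without Tlr4 and Tlr9), 7 and 6 with pseudocounts of 0.1 and 1 FPKM, and 4 at a threshold of 1. Tlr5 was the 1 higher member in each scaling. The scalings shifted all ratios by 0.04 to 0.08. Of the pathway genes, the 43 lower became 25 at a threshold of 1, and the 1 higher became 2 under each of the 3 scalings and without a filter on low values, and 0 at a threshold of 1. Of all tested genes, the 3029 lower became 1661 with a pseudocount of 1 FPKM, 1417 at a threshold of 1 and 1312 by the whole interval. The 2265 higher became 965, 910 and 660 in the same order, and 1281 with at least 1 FPKM in 1 library. A higher threshold, a larger pseudocount and a stricter filter call fewer genes by their construction. Each scaling adds 1 constant to every log2 ratio, which removes lower calls and adds higher ones: 2653 lower and 2712 higher genes by upper quartile, 2796 and 2502 by trimmed mean.

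No paired analysis was possible because each group is 1 pooled library. Leaving out a replicate was not possible for the same reason, and a planned ratio of scaled counts was not run because the table holds no counts. Depth limits Tlr5, Tlr6, Tlr9, Tlr11 and Tlr12 most, with at most 174 reads in a library, and the spread between animals is unknown for every gene.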
